A study of Homo sapiens with 12 samples.

Results

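The 9 genes described here are CASP1, CASP4, CASP5, CASP8, GSDMD, GSDME, NLRP1, PYCARD and AIM2, the inflammatory caspases, inflammasome components and gasdermins, chosen by symbol from a table of 60675 genes. They were measured by RNA-seq in MCF10A cells, a non-tumorigenic line of human mammary epithelium. The 12 libraries were 2 each of wild-type cells (WT), cells labelled IL1R1-KO and cells labelled IL1RAP-KO, each untreated or after 20 Gy of irradiation (RT). The knockouts were made with a lentiviral CRISPR vector and puromycin and were kept as pools, not clones, and all cells grew in a medium with EGF, cholera toxin, insulin, hydrocortisone and horse serum. The time between irradiation and RNA extraction is not given in the sources used here.

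Inflammasomes are protein platforms that turn the sensing of danger into proteolysis. Sensors such as NLRP1 and AIM2 recruit caspase-1, and PYCARD encodes ASC, an adaptor of inflammasomes. Caspase-1 then matures the cytokines IL-1β and IL-18 and cuts gasdermin D, whose fragment opens pores in the plasma membrane. Caspase-4 and caspase-5 sense bacterial lipopolysaccharide inside the cell and also cut gasdermin D, caspase-8 stands between death receptors, necroptosis and inflammasomes, and gasdermin E is a further pore former that cleavage activates. Many of these proteins are controlled by cleavage as well as by the amount of mRNA, and only mRNA was measured here.

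CASP1, CASP4 and CASP5 lie side by side on the minus strand of chromosome 11 (GRCh38, GENCODE annotation): CASP4 at chr11:104942866-104969366, CASP5 at chr11:104994235-105023168 and CASP1 at chr11:105025397-105035250. The 3 genes span 92.4 kb, with 2.23 kb between CASP5 and CASP1. CASP8 is at chr2:201233443-201361836, GSDME at chr7:24698355-24757940, NLRP1 at chr17:5499415-5619424, PYCARD at chr16:31201486-31203450 and AIM2 at chr1:159061599-159187843. RefSeq promoter windows of 300 bases (250 before a listed transcript start and 50 after it, GRCh38.p14) matched 6 of the 9 genes. CASP8 had 3 starts, and CASP1, GSDMD and NLRP1 had no entry. The listed starts can differ from the gene starts above. The windows of CASP4, GSDME, PYCARD and AIM2 and the later CASP8 windows lay wholly inside the gene spans. CASP4 and CASP5 are shown because they are neighbours of like sequence and very different level, and PYCARD because it was listed at 0 in 11 of 12 libraries. In CASP5 (chr11:105023119-105023418, minus strand) the capitals mark 2 overlapping matches to the core of an interferon-stimulated response element (GAAANNGAAA) and 1 match to a gamma-activated site (TTCNNNGAA). In CASP4 (chr11:104968525-104968824, minus strand) they mark the bases aligned to those matches, and in PYCARD (chr16:31202711-31203010, minus strand) they mark CpG pairs.
CASP5: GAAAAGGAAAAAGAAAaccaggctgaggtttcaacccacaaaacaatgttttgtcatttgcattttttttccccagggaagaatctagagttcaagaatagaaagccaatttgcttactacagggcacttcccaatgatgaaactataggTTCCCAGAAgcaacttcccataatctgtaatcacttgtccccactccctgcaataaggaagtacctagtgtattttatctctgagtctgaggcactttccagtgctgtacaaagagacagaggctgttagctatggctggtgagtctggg
CASP4: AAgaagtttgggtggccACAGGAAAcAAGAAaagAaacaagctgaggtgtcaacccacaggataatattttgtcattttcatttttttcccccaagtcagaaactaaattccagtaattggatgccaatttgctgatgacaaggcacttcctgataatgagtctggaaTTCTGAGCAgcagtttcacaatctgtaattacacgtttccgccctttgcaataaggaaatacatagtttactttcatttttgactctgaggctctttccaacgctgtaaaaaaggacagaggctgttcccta
PYCARD: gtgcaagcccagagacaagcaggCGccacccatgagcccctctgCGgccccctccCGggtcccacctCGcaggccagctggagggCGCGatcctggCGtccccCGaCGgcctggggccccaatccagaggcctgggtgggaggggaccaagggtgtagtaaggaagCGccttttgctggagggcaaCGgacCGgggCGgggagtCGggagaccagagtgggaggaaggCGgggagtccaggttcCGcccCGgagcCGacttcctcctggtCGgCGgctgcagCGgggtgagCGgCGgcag

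In a global alignment the CASP4 and CASP5 windows were identical at 215 of 280 aligned positions (76.8%), and 40 further positions were gaps. Of the 25 CASP5 bases in capitals, 20 were identical in CASP4, which had no match to either motif. Gaps in the alignment split the unbroken CASP5 run of response element matches into separate pieces in CASP4. The count of identical bases therefore does not describe a conserved element. Both strands were searched; the response element core was found in 3.57% and the gamma-activated site in 7.66% of all 35116 windows. AIM2 and the first CASP8 start also held the response element core, and that CASP8 start the gamma-activated site. The PYCARD window held 23 CpG pairs and that of GSDME 35, against 3 in CASP4, 2 in AIM2, 5 or 6 at the CASP8 starts and 0 in CASP5; the median of all windows was 14. No window of these genes matched the NF-κB motif, which 11.3% of all windows held. A match describes the letters of a window and does not show that a factor bound there.

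The files give TPM, transcript abundances with gene length already divided out and a fixed total per library. The depth of the libraries is unknown. The gene lengths used are not given in the sources used here, and comparisons of level between genes depend on them. Levels below are scaled TPM, that is TPM divided by a factor per library. The table shows the cells as labelled in most respects: the summed epithelial markers were 4402 to 5311 TPM in untreated and 2013 to 3590 TPM in irradiated libraries. Among 12 leukocyte markers TYROBP and AIF1 were at 0 in all 12 libraries; LAPTM5 alone was high (9.62 to 89.7 TPM), and the other 11 summed to 1.81 to 5.74 TPM. Of 6 fibroblast markers COL1A2 was at 0 throughout, and the sum, mostly DCN, was 18.8 to 24.6 TPM in untreated and 39.5 to 78.3 TPM in irradiated libraries. Mitochondrial genes took 18.3% to 21.1% of TPM in untreated and 36.9% to 57.0% in irradiated libraries, highest in the second IL1RAP-KO RT library; the part of these shifts in the results was not tested. The mean scaled TPM of IL1RAP was 4.68 in IL1RAP-KO and 19.3 in WT. That of IL1R1 was 9.39 in IL1R1-KO and 10.0 in WT, so the IL1R1-KO label is not visible in mRNA level. The paper's evidence for this knockout was functional: its knockout cells resisted the IκBα degradation that IL-1α or IL-1β caused in wild-type cells. Where a level differs, fewer cells of a kind and less RNA per cell cannot be told apart in bulk RNA.

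Of the 9 genes, 6 reached 1 TPM in 2 or more libraries and were tested: CASP1, CASP4, CASP8, GSDMD, GSDME and NLRP1. The others, PYCARD, CASP5 and AIM2, never reached 1 TPM. In untreated cells the order was CASP4 (median scaled TPM of the 6 libraries 95.9), CASP1 (48.3), CASP8 (33.5), GSDME (22.99), GSDMD (5.85), NLRP1 (1.68), AIM2 (0.176), then CASP5 and PYCARD (both 0). The ranges of neighbours did not overlap from CASP4 down to AIM2, although CASP1 (lowest 37.9) and CASP8 (highest 37.0) came close. After RT the order was CASP4 (67.6), CASP8 (36.0), CASP1 (30.1), GSDME (20.3), GSDMD (4.49) and NLRP1 (2.71). In the irradiated libraries the ranges of CASP8 and CASP1, of CASP1 and GSDME, and of GSDMD and NLRP1 overlapped. Within a library CASP1 was above GSDME in all 6 irradiated libraries, CASP8 above CASP1 in 5 and GSDMD above NLRP1 in 4.

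**Figure D1:**
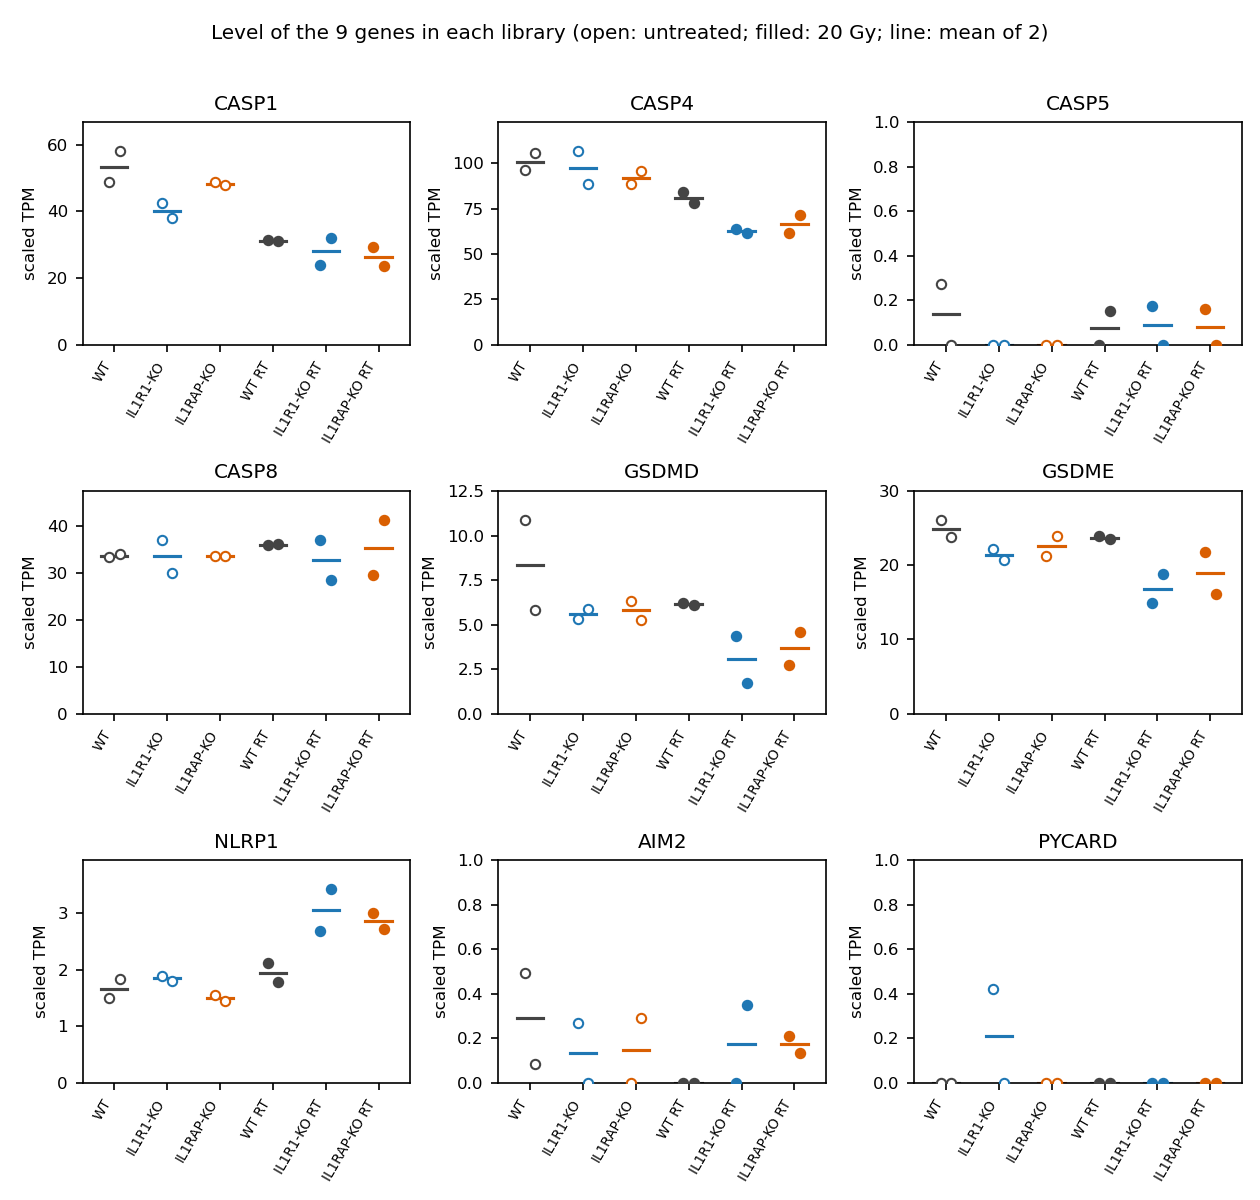
Scaled TPM of each gene in the 12 libraries, by group, with a panel and a linear axis from 0 for each gene; points are libraries and lines the mean of 2. CASP1 and CASP4 sit lower in all 6 irradiated libraries (CASP1 at most 32.0 against at least 37.9 untreated), CASP8 stays between 28.5 and 41.2, and CASP5, AIM2 and PYCARD are at most 0.492.

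The sensors were at the low end. NLRP1, which starts an inflammasome after its own cleavage, was at 1.49 and 1.84 scaled TPM in WT, 1.89 and 1.81 in IL1R1-KO and 1.56 and 1.45 in IL1RAP-KO. After RT it was at 2.12 and 1.79 in WT, 2.68 and 3.43 in IL1R1-KO and 3.01 and 2.73 in IL1RAP-KO. The irradiated libraries of both knockouts lay above every untreated library, whereas those of WT overlapped the untreated range. Of all tested genes, 18.2% had all 6 irradiated libraries above the 6 untreated ones, and the share for the knockouts alone was not counted. For NLRP1 the difference in response from WT was not called in IL1R1-KO or IL1RAP-KO (limma adjusted p 0.51 and 0.34). AIM2, a sensor of DNA in the cytosol, was at 0 in 5 libraries and reached 0.54 TPM in the first WT library. Both WT RT libraries were at 0, and AIM2 was too low in every group for a comparison.

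The adaptor gene PYCARD was listed at 0 in 11 libraries and at 0.44 TPM in the first IL1R1-KO library. Of 80 ribosomal protein genes, only RPL3L, RPL39L and RPL10L were at 0 in any library. This does not show how well a gene of low level is detected. PYCARD shares 991 of its 1660 exonic bases (59.7%) with PYCARD-AS1 on the opposite strand. Overlaps with other genes on the same strand covered 7.44% of the exonic bases of NLRP1, 7.78% of AIM2 and 4.74% of CASP8. Whether reads of any of these stretches were lost to either gene was not tested.

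CASP1 was at 48.6 and 58.1 scaled TPM in WT, 42.4 and 37.9 in IL1R1-KO and 48.7 and 47.9 in IL1RAP-KO. After RT it was at 31.3 and 31.0 in WT, 24.02 and 32.0 in IL1R1-KO and 29.2 and 23.5 in IL1RAP-KO. Every irradiated library was below every untreated one, a pattern that 22.8% of the tested genes shared, while 18.2% were higher in every irradiated library. CARD16, a neighbour made of a CARD domain much like that of caspase-1, was at 5.37 to 11.2 scaled TPM, so reads that the 2 genes share could move either value.

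CASP4, the highest of the 9, was at 96.3 and 106 scaled TPM in WT, 107 and 88.6 in IL1R1-KO and 88.5 and 95.6 in IL1RAP-KO. After RT it was at 84.0 and 78.1 in WT, 63.9 and 61.7 in IL1R1-KO and 61.7 and 71.4 in IL1RAP-KO. Here too the 6 irradiated libraries were below the 6 untreated ones. CASP5, next to it, was at 0 in 8 libraries and between 0.14 and 0.30 TPM in the rest, 1 untreated (WT) and 3 irradiated, a genotype each. Of the genes around them on chromosome 11, CASP12 was at 0 in 11 libraries and CARD18 reached 2.69 TPM.

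**Figure D2:**
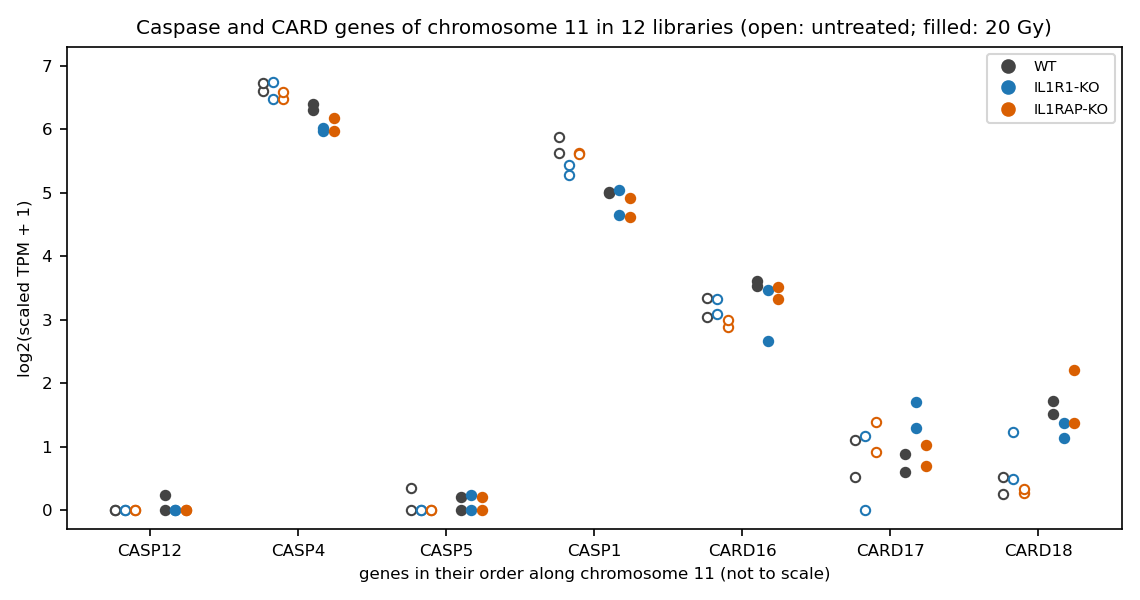
Level on the scale log2(scaled TPM + 1) of 7 caspase and CARD genes in their order along chromosome 11; open points are untreated libraries, filled points those after 20 Gy, colours the genotypes. CASP4 and CASP1 are lower in every irradiated library, while CASP5 between them and CASP12 stay at or near 0 in all 12.

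CASP8, which starts apoptosis downstream of death receptors, was at 33.3 and 33.9 scaled TPM in WT, 37.0 and 30.0 in IL1R1-KO and 33.4 and 33.6 in IL1RAP-KO. After RT it was at 35.8 and 36.2 in WT, 36.9 and 28.5 in IL1R1-KO and 29.4 and 41.2 in IL1RAP-KO. Irradiated and untreated libraries overlapped, and the spread within the irradiated knockouts was larger than any difference between groups.

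Of the pore-forming genes, GSDME was more abundant than GSDMD in all 12 libraries. GSDMD was at 10.9 and 5.84 scaled TPM in WT, 5.32 and 5.86 in IL1R1-KO and 6.35 and 5.25 in IL1RAP-KO. After RT it was at 6.19 and 6.11 in WT, 4.37 and 1.74 in IL1R1-KO and 2.72 and 4.5996 in IL1RAP-KO. The first WT library stood well above its replicate, and the irradiated IL1R1-KO libraries differed by more than the group means of WT and WT RT did. GSDME was at 26.1 and 23.8 scaled TPM in WT, 22.2 and 20.7 in IL1R1-KO and 21.3 and 23.9 in IL1RAP-KO, and after RT at 23.95 and 23.5, 14.9 and 18.8, and 21.8 and 16.2 in the same order. Its lowest 3 values were all from irradiated knockout libraries.

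The response to RT was tested with limma on log2(scaled TPM + 1), a scale that understates changes of low genes such as NLRP1. Calls required a fold change over 2 together with an adjusted p (Benjamini-Hochberg, over 15303 genes) under 0.05. By this rule none of the 6 tested genes changed in any genotype. In WT the rule called 7.04% of all genes higher and 6.17% lower, in IL1R1-KO 8.14% and 8.16%, and in IL1RAP-KO 8.21% and 9.19%. At an unadjusted p under 0.05 there were 2 of the 6 in WT, 5 in IL1R1-KO and 3 in IL1RAP-KO, beside 50.8%, 54.8% and 56.3% of all genes.

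CASP1 was lower after RT by a fold short of 2 in each genotype. Its log2 difference was -0.75 ± 0.15 (SE) in WT (limma adjusted p 0.0028), -0.51 ± 0.15 in IL1R1-KO (0.017) and -0.86 ± 0.15 in IL1RAP-KO (0.001). CASP4 had log2 differences of -0.31 ± 0.11 in WT (limma adjusted p 0.041, and under 0.05 in 4 of 12 settings), -0.62 ± 0.11 in IL1R1-KO (0.0011) and -0.46 ± 0.11 in IL1RAP-KO (0.0057). NLRP1 had 0.15 ± 0.17 in WT (limma adjusted p 0.51), 0.51 ± 0.17 in IL1R1-KO (0.032) and 0.63 ± 0.17 in IL1RAP-KO (0.012). With the lower fold threshold that the study's methods name, CASP1 counted as lower in all 3 genotypes and CASP4 as lower and NLRP1 as higher in both knockouts. That made 1 of 6 lower in WT, where the background was 19.8% (17.8% higher, with 0 of 6), and 2 of 6 lower in IL1R1-KO and IL1RAP-KO, where it was 22.3% and 23.5%. The 1 of 6 higher in each knockout compares with 20.3% and 20.7%, and with 6 genes these counts do not set the members apart from all genes.

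The scaling between libraries set part of these sizes. With TPM as deposited the CASP1 difference in WT was -1.01 and in IL1RAP-KO -1.199, both past the fold of 2; scaled instead to the protein-coding genes of the nucleus, it was -0.056 in IL1R1-KO. That last scaling also put CASP4 at -0.20, -0.16 and -0.068 in WT, IL1R1-KO and IL1RAP-KO (limma adjusted p 0.17, 0.24 and 0.62), while it moved the median of all genes by 0.095, 0.39 and 0.33. With TPM as deposited that median moved by -0.22, 0.018 and -0.28. CASP1 and CASP4 lay below that median in every genotype under each scaling. A change of scaling shifts all genes of a library nearly alike, so this place below the median is not a separate check.

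Over the 12 settings tried, the reported one included, the limma adjusted p of CASP1 was under 0.05 in all 12 in WT and in IL1RAP-KO and in 7 in IL1R1-KO. In IL1R1-KO it was 0.063 with TPM as deposited, 0.76 with the nuclear scaling, 0.064 with the compared libraries alone, 0.098 without the first IL1R1-KO library and 0.15 without the first IL1R1-KO RT library, where the difference was -0.31. CASP4 was under 0.05 in 11 of 12 in each knockout, the exception being the nuclear scaling. In WT, beside the nuclear scaling, its limma adjusted p was 0.054 with the replicate number as a block, 0.065 with median-of-ratios scaling, 0.079 with no filter on low values and 0.067 to 0.21 without any single library of WT or WT RT. NLRP1 was under 0.05 in 7 of 12 in IL1R1-KO and 10 of 12 in IL1RAP-KO. In IL1R1-KO its limma adjusted p was 0.076 with no filter, 0.073 with the compared libraries alone, and 0.085, 0.11 and 0.18 without either IL1R1-KO library or the second IL1R1-KO RT library. In IL1RAP-KO it was 0.12 with TPM as deposited and 0.063 without the second IL1RAP-KO library.

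Ratios within a library do not depend on any scaling; they were added after the values were seen and are a description. CASP1 was at 1.14 to 1.71 times CASP8 in the 6 untreated and 0.570 to 1.12 times in the 6 irradiated libraries. CASP4 was at 2.65 to 3.12 times CASP8 in untreated and 1.73 to 2.35 times in irradiated libraries. Neither pair of ranges overlapped, so CASP1 and CASP4 were lower relative to CASP8 in all irradiated libraries, by whichever gene the ratio moved. For CASP1 the ranges nearly met, at 1.14 and 1.12. The share of all genes whose ratio to CASP8 separated in this way was not counted. In scaled TPM, 22.8% of the tested genes were lower in every irradiated library.

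CASP8 had log2 differences after RT of 0.10 in WT (95% interval -0.28 to 0.47), -0.04 in IL1R1-KO (-0.41 to 0.33) and 0.05 in IL1RAP-KO (-0.32 to 0.42). These intervals lie inside a fold of 2 in either direction but do not show that the level was the same. They hold for the reported scaling only. With the nuclear scaling CASP8 had 0.21, 0.42 and 0.44 in WT, IL1R1-KO and IL1RAP-KO (limma adjusted p 0.37, 0.061 and 0.052). With TPM as deposited it had -0.16, -0.016 and -0.29. GSDMD had -0.33 ± 0.34 in WT, -0.78 ± 0.34 in IL1R1-KO and -0.57 ± 0.34 in IL1RAP-KO, with limma adjusted p of 0.46, 0.085 and 0.19. Without the first IL1R1-KO RT library GSDMD was called lower in IL1R1-KO, with a log2 difference of -1.27 (limma adjusted p 0.019), and without the second it was -0.29 (0.53). GSDME had -0.07 ± 0.15, -0.34 ± 0.15 and -0.25 ± 0.15, with limma adjusted p of 0.75, 0.089 and 0.18. The median over the 6 genes was -0.19 in WT, -0.43 in IL1R1-KO and -0.36 in IL1RAP-KO, beside 0.00, 0.01 and 0.00 over all genes tested.

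**Figure D3:**
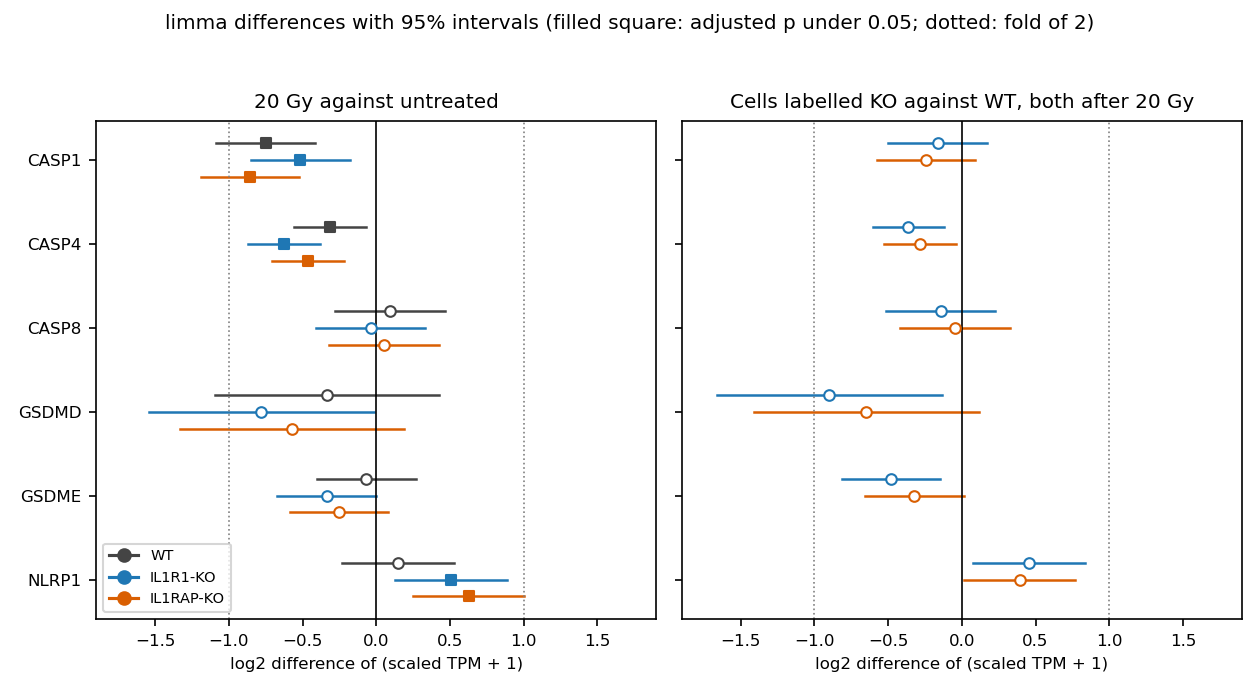
Log2 differences of (scaled TPM + 1) with 95% intervals from limma for the 6 tested genes, after RT against untreated (left) and cells labelled KO against WT after RT (right); filled squares have an adjusted p under 0.05 and dotted lines mark a fold of 2. CASP1 and CASP4 lie below 0 in all 3 genotypes, NLRP1 is filled in both knockouts and open in WT, and no point on the right is filled.

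Next the question was whether loss of the IL-1 receptor chains moved these genes. In untreated cells none of the 6 was called in IL1R1-KO against WT, where the rule called 0.0196% of all genes higher and 0.118% lower, nor in IL1RAP-KO against WT, where it called 0% and 0.098%. At an unadjusted p under 0.05 there was 1 gene in IL1R1-KO, CASP1, and 0 in IL1RAP-KO, beside 5.27% and 4.03% of all genes. CASP1 was at a mean of 40.1 ± 3.19 (SD, n = 2) scaled TPM in IL1R1-KO and 53.4 ± 6.68 in WT, a log2 difference of -0.40 (limma adjusted p 0.86).

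After RT, 0 of 6 were called in IL1R1-KO against WT, beside 1.18% of all genes higher and 1.9% lower, and 0 of 6 in IL1RAP-KO, beside 0.83% and 2.06%. At an unadjusted p under 0.05 there were 4 genes in IL1R1-KO (CASP4, GSDMD, GSDME and NLRP1) and 2 in IL1RAP-KO (CASP4 and NLRP1), beside 26.5% and 31.1% of all genes. CASP4 had a log2 difference of -0.36 in IL1R1-KO (limma adjusted p 0.059) and -0.28 in IL1RAP-KO (0.11). GSDMD had -0.90 and -0.65 (limma adjusted p 0.12 and 0.23), GSDME -0.48 and -0.32 (0.068 and 0.17), and NLRP1 0.46 and 0.39 (0.12 and 0.15). The 2 comparisons share the WT RT libraries, so their like signs are not independent. CASP1 had -0.16 and -0.24, and CASP8 -0.14 and -0.05. The median of the 6 genes was -0.26 in each knockout, beside 0.00 over all genes.

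The difference between the RT response of a knockout and that of WT was tested directly and was called for 0 of 6 genes in either knockout. The rule called 0.516% of all genes higher and 0.928% lower in IL1R1-KO, and 0.157% and 0.66% in IL1RAP-KO, and 0 of the 6 had an unadjusted p under 0.05 in either, beside 17% and 17.4% of all genes. NLRP1, which passed the adjusted p in the knockouts and not in WT, had interaction values of 0.36 (95% interval -0.18 to 0.89) in IL1R1-KO and 0.48 (-0.06 to 1.01) in IL1RAP-KO. CASP4 had -0.31 (-0.66 to 0.03) and -0.15 (-0.50 to 0.19). A difference between genotypes in the response of these genes was therefore not shown, and the intervals leave room for differences of the size of the responses themselves.

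The cytokines that these caspases process differed from each other. IL1B, the substrate of caspase-1 that needs cleavage to act, was at 15.4 and 17.1 scaled TPM in WT and at 70.4 and 73.1 in WT RT. In IL1R1-KO it was at 6.71 and 8.81 before and 8.39 and 10.3 after RT, and in IL1RAP-KO at 7.77 and 8.52 before and 12.8 and 10.1 after RT. IL1B rose in WT by 2.08 ± 0.16 on the log2 scale (limma adjusted p 7.4e-06), and had 0.24 in IL1R1-KO and 0.44 in IL1RAP-KO (limma adjusted p 0.22 and 0.04). This response differed from that of WT by -1.84 in IL1R1-KO (limma adjusted p 0.0028) and -1.65 in IL1RAP-KO (0.0087).

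IL18, the other cytokine matured by caspase-1, had lower levels after RT in every genotype, at 199.7 and 202 scaled TPM in WT and 145 and 129 in WT RT. Its log2 differences were -0.55 in WT, -0.71 in IL1R1-KO and -0.56 in IL1RAP-KO, all at a fold short of 2. As ratios within a library, IL1B was at 0.294 and 0.316 times CASP1 in WT and at 2.25 and 2.36 times in WT RT, and at 0.321 to 0.437 times in the 4 irradiated knockout libraries. IL18 was at 3.48 to 5.15 times CASP1 in untreated and 3.98 to 6.26 times in irradiated libraries, ranges that overlap. IL1A, an alarmin cut by other proteases as well as caspase-5, rose in WT by 1.63, with 0.70 in IL1R1-KO and 0.63 in IL1RAP-KO.

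**Figure D4:**
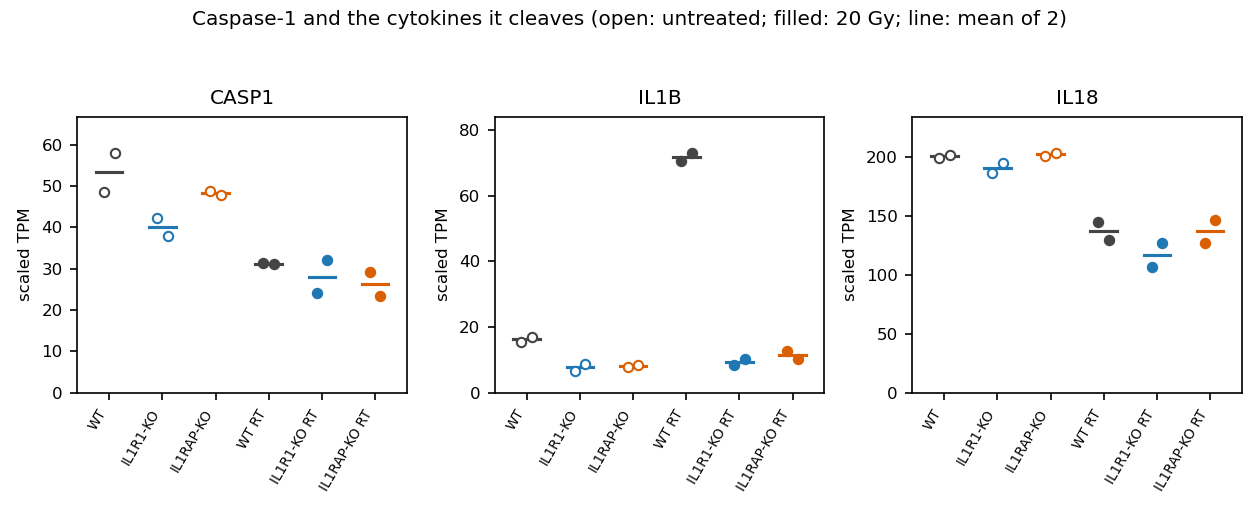
Scaled TPM of CASP1 and of its cytokine substrates IL1B and IL18 in the 12 libraries by group, on linear axes from 0; points are libraries and lines the mean of 2. IL1B is at 70.4 and 73.1 in WT RT and at most 17.1 elsewhere, while CASP1 and IL18 are lower after RT in all 3 genotypes.

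Another 65 genes of these pathways were listed by role, and 45 of them were tested. After RT 11 of them rose in WT, 8 in IL1R1-KO and 9 in IL1RAP-KO, and the numbers that fell were 0, 1 and 0. Of all tested genes, 7.04%, 8.14% and 8.21% were called higher and 6.17%, 8.16% and 9.19% lower. The lists were chosen with earlier results of these data known, so the counts are a description. The median log2 difference of the 45 was 0.26, 0.40 and 0.34, beside medians below 0 for the 6 members. In untreated cells limma called none of the 45 in either knockout, beside at most 0.118% of all genes in either direction. An unadjusted limma p under 0.05 was found for 8 in IL1R1-KO and 9 in IL1RAP-KO, beside 5.27% and 4.03% of all genes. After RT the same 3 genes (IL1A, IL1B and IRF1) were lower in both knockouts than in WT, beside 1.9% and 2.06% of all genes.

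Of 12 other sensors only IFI16, a DNA sensor at a mean of 283 scaled TPM, and CARD8, a relative of NLRP1 at 10.8, were expressed enough to test, and neither was called. NLRP3 never exceeded 0.68 TPM and NLRP9 was at 0 in all libraries. Of 11 partners and inhibitors 8 were tested. TXNIP, which binds thioredoxin and has been tied to NLRP3, rose in every genotype, by 2.01, 2.43 and 2.08 on the log2 scale in WT, IL1R1-KO and IL1RAP-KO. CARD18, a CARD-only inhibitor of caspase-1, rose in WT (1.23) and IL1RAP-KO (1.49) and had 0.40 in IL1R1-KO. NEK7, a partner of NLRP3, and SERPINB1, an inhibitor of neutrophil proteases and inflammatory caspases, were not called.

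Among 5 other gasdermin or membrane rupture genes GSDMC rose in all 3 genotypes (1.93, 1.76 and 1.346), from a mean of 1.37 to 8.04 scaled TPM in WT. PJVK, the gene of pejvakin, rose in WT (1.396) and IL1RAP-KO (1.09) and had 0.90 in IL1R1-KO. NINJ1, whose protein ruptures the membrane of dying cells, had 0.63, 0.96 and 0.48, and GSDMB 0.17, 0.95 and 0.36, neither at a fold of 2. Of 7 other caspases tested none was called; CASP6 had -0.26, -0.63 and -0.46.

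Of 9 tested partners of caspase-8, CFLAR, whose product c-FLIP restrains caspase-8, rose in WT by 1.61 and had 0.86 in IL1R1-KO and 0.96 in IL1RAP-KO. MLKL, the pore former of necroptosis, fell in IL1R1-KO by 1.02 and had -0.90 in IL1RAP-KO and -0.27 in WT. RIPK3, the kinase that activates MLKL, and ZBP1 were at 0 in all 12 libraries. The death receptor genes FAS and TNFRSF10B were not called, with 0.61 and 0.19 in WT.

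The guanylate-binding proteins that help caspase-4 reach bacterial lipopolysaccharide included genes that were called. GBP2 rose by 2.72, 2.19 and 2.997 and GBP3 by 1.08, 1.57 and 1.48 in WT, IL1R1-KO and IL1RAP-KO, whereas GBP1 was not called. Of the 8 interferon and NF-κB transcription factors, IRF9 rose by 2.14, 3.16 and 2.74 and IRF7 by 1.80, 2.93 and 1.71. STAT2 rose in IL1R1-KO (1.19) and IL1RAP-KO (1.199), and had 0.90 in WT. NFKB1 and RELA were not called in any genotype. At the lower fold threshold NFKB1 counted as lower after RT in both knockouts (beside 22.3% and 23.5% of all genes) and not in WT. Its mean went from 36.1 to 19.5 scaled TPM in IL1R1-KO, from 37.3 to 24.1 in IL1RAP-KO and from 44.9 to 35.2 in WT. RELA did not count in any genotype.

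**Figure D5:**
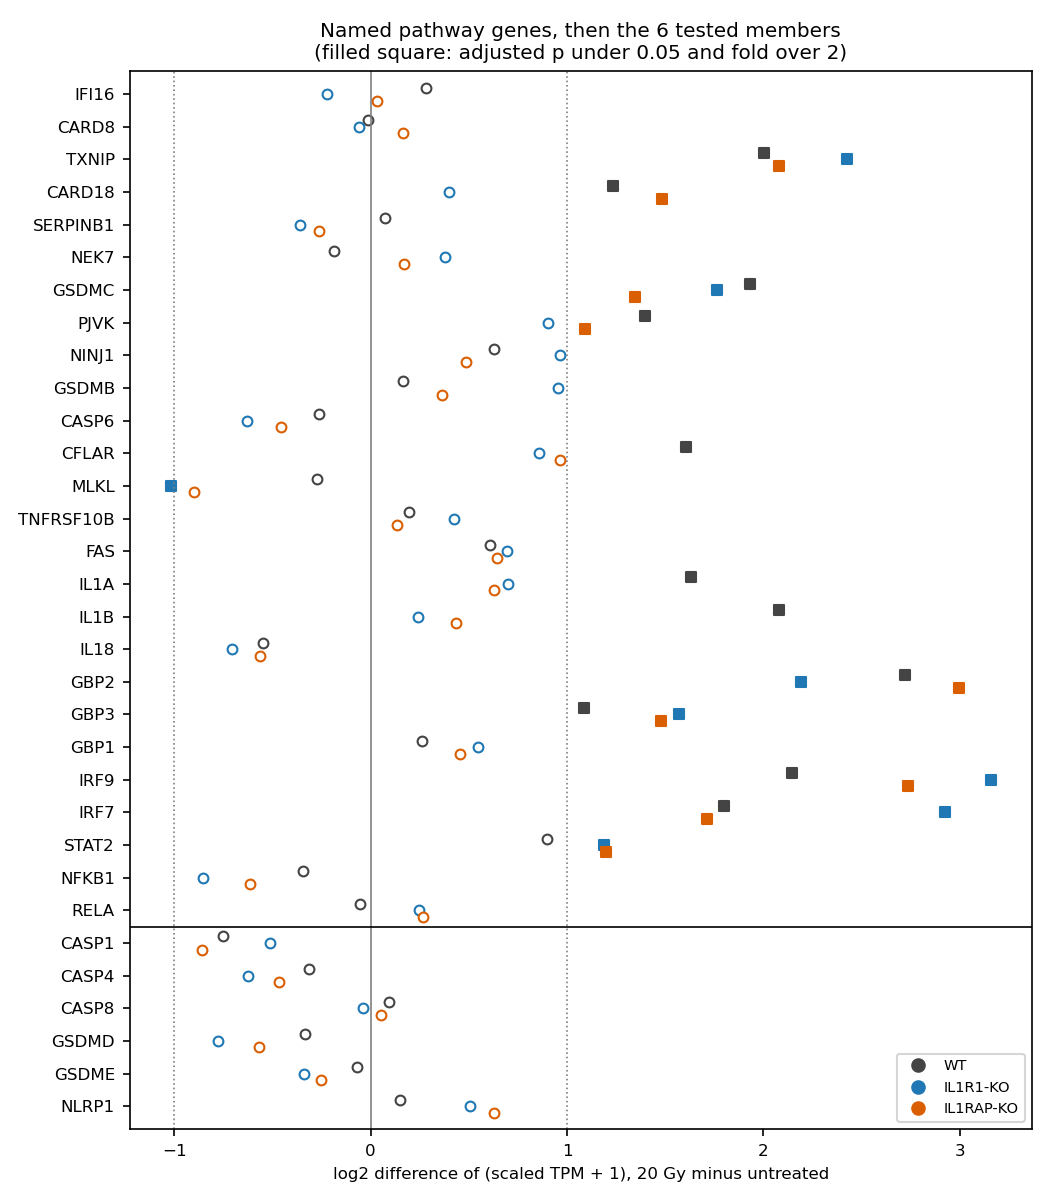
Log2 difference of (scaled TPM + 1) after RT for the named pathway genes (above the line) and the 6 tested members (below it), with a point per genotype; filled squares passed an adjusted p of 0.05 and a fold of 2. TXNIP, GSDMC, GBP2, GBP3, IRF9 and IRF7 are filled in all 3 genotypes. IL1B, IL1A and CFLAR are filled in WT and open in both knockouts, and none of the 6 members is filled. An open point is not a lack of response: at the lower fold threshold IL1A and CFLAR counted as higher in both knockouts, and IL1B in IL1RAP-KO.

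Across the 12 libraries, which share treatment and genotype and so are no independent points, the Pearson correlation of log2 levels was 0.83 between CASP1 and CASP4, -0.85 between CASP4 and NLRP1 and -0.25 between CASP1 and CASP8. The genes whose pattern was most like each member, among 15303, were RRS1 (0.97), DENND6A and HSD17B8 for CASP1, and ATP13A3 (0.99), MPHOSPH6 and LGMN for CASP4. For NLRP1 they were JDP2 (0.97), ZNF133 and HOTAIR, for GSDME CCBE1 (0.93), MELTF and NNMT, for GSDMD MILR1 (0.90), NR1H3 and BCL11A, and for CASP8 MIR646HG (0.90), CDO1 and MKLN1. CASP8 and GSDMD had the weakest best match, at 0.90.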

How the data were processed

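RNA-seq of 12 MCF10A libraries (6 groups of 2) was analysed. The submitters' processing notes list cutadapt 1.15 (trimming), STAR 2.5.3a (alignment, GRCh38) and HTSeq (counting). The values deposited by the authors are TPM, so depth is unknown and no count model was run. Replicates are called biological by the study, and p-values measure only the spread between these libraries.

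The 15303 genes that reached 1 TPM in 2 or more libraries were scaled by an unweighted trimmed mean of M values (30% and 5% trimmed), taken as log2(scaled TPM + 1) and fitted in R 4.3.3 by limma 3.58.1 with a mean per group and a trended prior (prior degrees of freedom 3.73, residual 6). The fit was tested on simulated data. A call needed a fold over 2 and an adjusted p (Benjamini-Hochberg) under 0.05. Members and gene lists were chosen with earlier results of these data known. All 9 members are named; of 65 pathway genes, the rule named at most 4 called genes per list (smallest adjusted p) and at most 2 uncalled ones (highest mean), and a few of these are not reported here. Same-numbered libraries correlated in their deviations at -0.061 to 0.095 (15 pairs of groups), so the numbers were not taken as pairs. Promoters came from RefSeq (GRCh38.p14), positions from GENCODE 44, and alignment from Biopython 1.88.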

Additional observations from a re-analysis of the deposited data

Results flagged for a closer look

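No member was flagged. Among the named pathway genes, the difference in RT response between a knockout and WT passed a limma adjusted p of 0.05 for 5. IL1B differed by -1.84 in IL1R1-KO and -1.65 in IL1RAP-KO (limma adjusted p 0.0028 and 0.0087), with a smaller response in both knockouts than in WT. IL1A differed by -0.94 and -1.01 (limma adjusted p 0.01 and 0.011). In IL1R1-KO, CFLAR differed by -0.75 (limma adjusted p 0.022), IFI16 by -0.50 (0.028) and NEK7 by 0.57 (0.046). Groups of 2 libraries were not searched for single outlying libraries.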

How the results depend on the processing

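The deposited TPM give no depth, and each group holds 2 libraries. The tests above were repeated with other scalings, a pseudocount of 0.1, no filter on low values, the compared libraries alone, the replicate number as a block, a lower fold threshold named in the methods of the study, and without each library. The cause of the differences below was not tested. The replicate block changed no call by the rule of a fold over 2: members called stayed at 0 in each comparison. With the replicate block CASP4 for RT in WT had a limma adjusted p of 0.054, beside 0.041 without it.

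Members called lower with TPM as deposited numbered 1 in WT and 1 in IL1RAP-KO after RT (CASP1 in both). At the lower fold 1 was lower in WT, 2 were lower in each knockout, and 1 was higher in each knockout. Leaving out single libraries gave 0 to 1 lower in IL1R1-KO and 0 to 1 in IL1RAP-KO, the second for CASP1 without the first IL1RAP-KO RT library (-1.01).

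The number of other pathway genes called at the lower fold was 21, 24 and 26 after RT in WT, IL1R1-KO and IL1RAP-KO, 1 and 1 in the untreated knockouts, 13 and 12 in the irradiated ones, and 5 for the difference in response of IL1R1-KO. With nuclear protein-coding scaling it was 16 in IL1R1-KO and 14 in IL1RAP-KO after RT, and 2 and 1 for the differences in response; with TPM as deposited it was 2 for that of IL1R1-KO. Without single libraries it was 3 to 5 in IL1R1-KO RT against WT RT, 0 to 1 in untreated IL1R1-KO, and 1 to 2 and 0 to 2 for the differences in response.

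Uncalled log2 differences changed sign as follows. With TPM as deposited, CASP8 was -0.16 and NLRP1 -0.024 for RT in WT, CASP8 -0.29 for RT in IL1RAP-KO, CASP1 0.094 and CASP8 0.11 for IL1R1-KO RT against WT RT, and CASP8 0.15 and GSDME 0.00686 for the response of IL1R1-KO. With nuclear protein-coding scaling, GSDME was 0.043, 0.11 and 0.13 for RT in WT, IL1R1-KO and IL1RAP-KO, and CASP8 0.42 for RT in IL1R1-KO. In the same scaling CASP1 and CASP8 were 0.18 and 0.20 for IL1R1-KO RT and 0.034 and 0.23 for IL1RAP-KO RT against WT RT. CASP4, CASP8 and GSDME were 0.041, 0.21 and 0.069 for the response of IL1R1-KO, and CASP1, CASP4, CASP8 and GSDME 0.17, 0.13, 0.24 and 0.086 for that of IL1RAP-KO.

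Without single libraries CASP8 ranged from -0.22 to 0.14 for RT in IL1R1-KO, -0.18 to 0.29 for RT in IL1RAP-KO, -0.16 to 0.14 and -0.016 to 0.0088 in the untreated knockouts, -0.33 to 0.036 and -0.28 to 0.19 in the irradiated ones, and -0.31 to 0.048 and -0.28 to 0.19 for the responses. CASP1 ranged from -0.36 to 0.036 in IL1R1-KO RT against WT RT and -0.26 to 0.045 for the response of IL1RAP-KO, and CASP4 from -0.18 to 0.083 in untreated IL1R1-KO. GSDMD ranged from -0.73 to 0.063 for RT in WT and from -0.93 to 0.041 and -0.63 to 0.16 for the responses, GSDME from -0.39 to 0.018 for that of IL1RAP-KO, and NLRP1 from -0.18 to 0.0059 in untreated IL1RAP-KO.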
